A study of Mus musculus with 2 samples.

Results

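The genes described are 10 regulators of alternative splicing and RNA stability that are known from neural tissue: Ptbp1, Ptbp2, Elavl1, Elavl2, Elavl3, Elavl4, Celf1, Rbfox2, Nova1 and Srrm4. They were chosen by name from 43346 gene rows, with earlier results of these data known. Each was matched to its row by gene ID, with its transcripts. The tissue was forebrain of B6NCrl mouse embryos of mixed sex at embryonic day 11.5, and the labels give no treatment or engineered allele. It was sequenced as 2 libraries, the forebrains of 109 embryos being pooled for replicate 1 and those of 88 others for replicate 2. Each library was made from an amount of total RNA above 200 nucleotides equal to that of 1 cell (1 cell-equivalent), by the SmartSeq method, which amplifies the copied RNA before sequencing, and ERCC spike-in RNAs had been added. Both libraries belong to a single group, so no conditions could be compared and no p-value is given. The comparison is between the replicates, and each samples the RNA of a whole tissue pool. With 1 cell-equivalent of RNA, the sampling of molecules cannot be told apart from differences between the pools. Nor can fewer cells of a type and less RNA per cell be told apart in such data.

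The libraries held 28639678 and 28948074 expected counts, the estimated reads per gene. Levels are TPM, a relative number of transcripts that corrects for their length,, given for replicate 1 and then replicate 2 unless said otherwise. Of the markers of forebrain, 4 of 5 were detected in both libraries (at least 1 TPM), and all 6 of midbrain and hindbrain had 0 counts in both. All 6 progenitor markers and 5 of 6 young neuron markers were detected in both. Their summed levels were 1334 and 2496 TPM for progenitors and 831 and 701 TPM for young neurons. Most of the progenitor sum came from Vim, at 741 and 1290 TPM, and Fabp7, at 438 and 1010. Within these lists, 4 of 6 progenitor markers were higher in replicate 2 and 4 of 6 young neuron markers in replicate 1. The 2 progenitor markers higher in replicate 1 were Sox2, at 21.75 and 18.95 TPM, and Pax6, at 85.55 and 30.12. One of the young neuron markers, Nefl, was at 16.4 TPM in replicate 1 and 0 in replicate 2. The 2 that were higher in replicate 2 were Dcx, at 16.1 and 95.6 TPM, and Stmn2, at 176 and 187. Markers of other cells were present too: 4 of 5 erythroid markers (summed 19755 and 24172 TPM), 4 of 5 endothelial (129 and 106), 3 of 4 mesenchymal (336 and 250) and 2 of 4 myeloid (115 and 26.4) were detected in both libraries. The part of these cells in the levels described here was not tested.

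Neural progenitors and neurons splice many of the same transcripts differently, and RNA-binding proteins set much of this difference. PTBP1, the polypyrimidine tract binding protein of progenitors and non-neural cells, represses neural exons, while its paralog PTBP2 takes its place as neurons are born. PTBP1 lowers PTBP2 by promoting skipping of a short Ptbp2 exon, which shifts the reading frame and exposes the transcript to nonsense-mediated decay. ELAVL, CELF, RBFOX, NOVA and SRRM4 proteins act on overlapping sets of exons and untranslated regions in developing neurons.

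The short frame-shifting exon is present in both Ptbp genes, and the sequences are shown because the paralogs' own regulation runs through it. It is exon 9 of Ptbp1-202 (chr10:79862014-79862047, plus strand) and exon 10 of Ptbp2-201 (chr3:119724612-119724645, minus strand), inside the coding sequence of both and 34 bases long. Coordinates are those of mm10, and sequences are from the GENCODE M21 transcripts, written 5′ to 3′. Capitals mark the bases that are the same in both exons, 26 of 34 (76.5%).
Ptbp1 exon: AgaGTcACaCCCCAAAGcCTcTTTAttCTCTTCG
Ptbp2 exon: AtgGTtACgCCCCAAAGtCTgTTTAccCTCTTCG
A longer cassette exon of Ptbp1, exon 8 of Ptbp1-216 (chr10:79860117-79860194, plus strand), has 78 bases and keeps the frame. It is shown whole, in lower case, because it tells Ptbp1-216 from the other main Ptbp1 transcripts.
Ptbp1 cassette exon: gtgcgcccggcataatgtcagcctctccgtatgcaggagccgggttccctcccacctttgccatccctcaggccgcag
Elavl2 and Elavl4 carry a matching alternative exon of 39 bases, shown as a pair because its estimated share of transcripts differed between the 2 genes. It is exon 6 of Elavl2-209 (chr4:91254141-91254179, minus strand) and exon 6 of Elavl4-202 (chr4:110209740-110209778, minus strand), and it lies in the coding sequence of both. Capitals again mark the bases that are the same, 33 of 39 (84.6%).
Elavl2 exon: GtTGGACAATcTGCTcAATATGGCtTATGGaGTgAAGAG
Elavl4 exon: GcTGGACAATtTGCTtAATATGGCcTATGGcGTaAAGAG

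All 10 regulators were detected in both libraries at 1 TPM or more, beside 30.4% of 21474 protein-coding gene rows. Because the genes were chosen with earlier results of these data known, this count is descriptive only. Their mean levels spanned 1.77 to 186 TPM. From highest to lowest mean they were Ptbp1, Elavl4, Ptbp2, Elavl2, Celf1, Rbfox2, Elavl1, Elavl3, Srrm4 and Nova1. Of the 9 pairs of neighbours in this order, 7 had overlapping ranges over the 2 libraries. The ranges were apart between Celf1 and Rbfox2 and between Srrm4 and Nova1, which divides the genes into an upper 5, a middle 4 and Nova1 alone. The plot of levels shows both libraries for each gene.

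**Figure D1:**
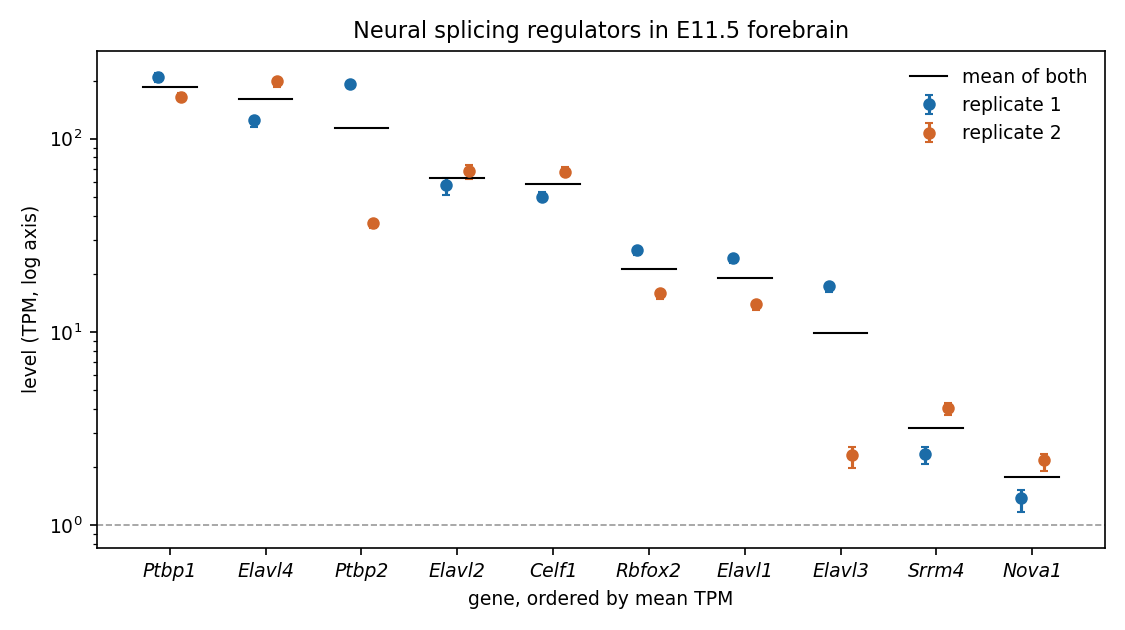
Level of each regulator in TPM (log axis) in replicate 1 (blue) and replicate 2 (orange), with the mean as a black line; bars join each point to the limits of the interval that the authors deposited, which belongs to a posterior mean and can leave out the point, and the dashed line is 1 TPM. Ptbp2 and Elavl3 have the widest gaps between the libraries, while Nova1 and Srrm4 have the lowest means.

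Ptbp1 was among the more abundant genes of the tissue in both libraries, and Ptbp2 was near the level of Ptbp1 in replicate 1 only. Ptbp1 (ENSMUSG00000006498.12, chromosome 10, 79854427 to 79864771, plus strand) stood at 207 and 165 TPM, a mean of 186 ± 30.1 (SD, n = 2), above 91.6% of the 9735 protein-coding genes with a mean of at least 1 TPM. Ptbp2 (ENSMUSG00000028134.7, chromosome 3, 119718742 to 119784466, minus strand) stood at 192 and 36.6 TPM, from 14003 and 2650 counts. The libraries thus gave Ptbp2 levels that differed 5.24 times in TPM and 5.34 times in CPM (counts scaled to library size). The SD of Ptbp2, 110 TPM around a mean of 114, was nearly as large as the mean. The ratio of Ptbp1 to Ptbp2 was accordingly 1.08 in replicate 1 and 4.51 in replicate 2, while Ptbp1 itself differed 1.26 times. Which of the pair was higher in replicate 1 depended on the scale: the ratio there was 0.74 in counts and 0.89 with transcripts under 1000 bases left out, against 3.60 and 4.28 in replicate 2. The other paralog, Ptbp3, was far lower, at 3.21 and 5.98 TPM.

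Ptbp1 had the same leading transcript in both libraries. The gene has 16 transcripts in the deposited tables, of which 6 reached 1 TPM in each library. Ptbp1-202, which lacks the 78-base exon, led in both with 35.4% and 41.1% of the gene's TPM. Ptbp1-206, also without it, held 21.2% and 20.8%, and Ptbp1-216, which has it, held 15.3% and 27.6%. The nonsense-mediated decay transcript Ptbp1-201, in which the 34-base exon is skipped, held 10.1% and 5.53%. Read as inclusion, meaning the TPM of transcripts with an exon over the TPM of all that span it, the 78-base exon was at 19.0% and 29.0%, and the 34-base exon at 87.7% and 94.2%. Most spanning Ptbp1 transcripts thus held the frame-keeping form of the latter in both libraries. Another Ptbp1 exon, 196 bases long and near the start of the gene, stood at 75.3% and 63.3%. That value rests on only 284 and 66.5 expected counts. The exon is a longer form of a 31-base exon that Ptbp1-202, Ptbp1-206 and Ptbp1-216 hold. Transcripts with the shorter form are left out, so the value compares Ptbp1-215 with Ptbp1-203 alone. Ptbp1-215, the only transcript counted with the long form, held 12.9% and 2.97% of the gene's TPM. Ptbp2 has a single transcript in the deposited tables, which holds its 34-base exon, so skipping of that exon could not be read.

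Among the Elavl genes, the RNA-stabilising proteins also called Hu proteins, the neuronal members together outweighed the broadly expressed Elavl1. Elavl1 (ENSMUSG00000040028.9, chromosome 8, 4285382 to 4325413, minus strand), which encodes the widely expressed HuR, stood at 24.2 and 13.9 TPM (19.1 ± 7.23, SD, n = 2). The summed TPM of Elavl2, Elavl3 and Elavl4 was 8.26 and 19.25 times as high, and their summed counts were 2.51 and 5.74 times as high. With transcripts under 1000 bases left out, the ratio in TPM was 3.45 and 7.76. The highest of the 3 in TPM was Elavl4 (ENSMUSG00000028546.13, chromosome 4, 110203722 to 110351909, minus strand), which encodes HuD of postmitotic neurons, at 125 and 198 TPM (161 ± 51.9). Elavl2 (ENSMUSG00000008489.14, chromosome 4, 91250763 to 91400785, minus strand), which encodes HuB, was the steadiest of the family, at 57.5 and 68.2 TPM (62.9 ± 7.54). Elavl4 exceeded Elavl2 in both libraries, 2.17 and 2.91 times in TPM and 1.12 and 1.41 times in counts, but with transcripts under 1000 bases left out it was below Elavl2, at 0.41 and 0.74 times. Elavl3 (ENSMUSG00000003410.7, chromosome 9, 22015005 to 22052023, minus strand), which encodes HuC of maturing neurons, was at 17.4 TPM in replicate 1 and 2.30 in replicate 2. Its 1915 and 251 counts place the gap at 7.55 times in TPM, wider than that of any other of the 10 genes.

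The high TPM of Elavl4 rested on short annotated transcripts. Its 5 transcripts under 1000 bases held 84.5% and 77.2% of its TPM but 46.6% and 34.7% of its counts, and the longer ones alone came to 19.4 and 45.1 TPM, a mean of 32.2. With transcripts under 1000 bases left out of every gene, a comparison chosen after seeing the data, Elavl4 moved from the second to the fifth place. Ptbp2 and Celf1 then followed Ptbp1, and Elavl2 was at 53.8 TPM. The leading Elavl4 transcript was the same in both libraries: Elavl4-211, a processed transcript of 869 bases without an annotated coding sequence, held 43.0% and 30.9%. Among the long coding transcripts, Elavl4-202 held 7.03% and 15.0%, and Elavl4-203 held 8.49% and 5.31%.

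The estimated share of the matching 39-base exon differed between Elavl2 and Elavl4, more in replicate 1 than in replicate 2. In Elavl4, transcripts with the exon made up 100% and 95.6% of the spanning TPM. Their expected counts were 2654.9 of 2654.9 and 4593.5 of 4973.8. The noncoding Elavl4-211 gave 53.66 of the 73.02 TPM with the exon in replicate 1 and 61.14 of 101.57 in replicate 2. In Elavl2, transcripts with the exon made up 17.5% of the TPM in replicate 1 and 66.9% in replicate 2. Their counts were 708 of 2828 and 1652 of 1950. The values of Elavl4 were thus above those of Elavl2 in both libraries, though the gap in replicate 2 was smaller in counts. The 2 Elavl2 values lay far apart. Only 1 Elavl4 transcript counted here lacks the exon, against 3 of Elavl2. Elavl2-204, a coding transcript without the exon, was at 18.3 TPM in replicate 1 and 0 in replicate 2, and Elavl2-209, which has it, stood at 4.76 and 16.4 TPM. A retained-intron transcript, Elavl2-215, which ends before the exon and so does not count in its inclusion, was at 0.02 TPM in replicate 1 and at 32.9 TPM, 48.3% of the gene, in replicate 2.

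**Figure D2:**
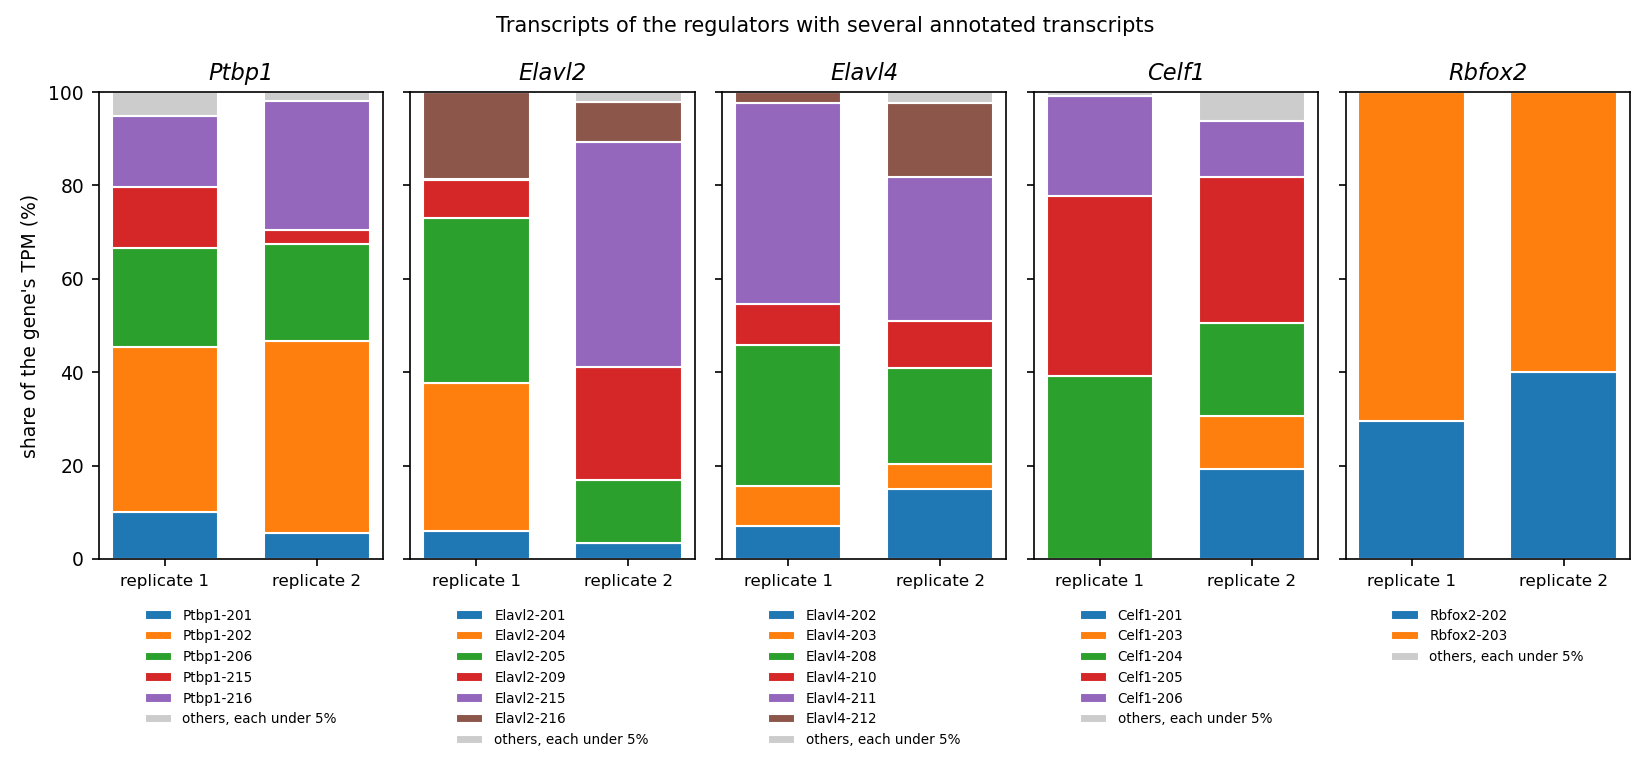
Share of each gene's TPM (percent) that falls to its transcripts in replicate 1 and replicate 2, for the 5 regulators with several annotated transcripts and at least 5 TPM in both libraries; colours are set within each gene, and transcripts under 5% in both libraries are grey. The purple Elavl2-215 fills 48.3% of the Elavl2 bar in replicate 2 and almost none in replicate 1, while Rbfox2 is divided between the same transcripts in both.

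Celf1 and Rbfox2 were in the middle of the order and differed by less than 2-fold between the libraries. Celf1 (ENSMUSG00000005506.12, chromosome 2, 90940382 to 91019497, plus strand), which binds GU-rich RNA and acts on both splicing and decay, was at 49.8 and 67.5 TPM (58.6 ± 12.5, SD, n = 2). Its closest measured paralog in level, Celf2, was at 78.3 and 61.0 TPM, so Celf1 was 0.64 times Celf2 in replicate 1 and 1.11 times in replicate 2. Rbfox2 (ENSMUSG00000033565.12, chromosome 15, 77078990 to 77307004, minus strand), which binds UGCAUG elements near alternative exons, was at 26.6 and 15.9 TPM (21.3 ± 7.61). It was the sole detected gene of its family: Rbfox1 had 0 counts in both libraries, which by counting error alone allows up to 0.105 and 0.104 CPM, and Rbfox3, which encodes the neuronal antigen NeuN, had 0 and 1 counts.

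The transcripts of these genes were read as far as annotation allowed. Rbfox2 was divided between Rbfox2-203, with 70.6% and 60.1% of its TPM, and Rbfox2-202, with 29.5% and 39.9%. No exon value is given for Rbfox2, since only 1 of its 4 transcripts has the same length in the deposited tables as in the annotation used here. For Celf1, Celf1-204 (39.1%) and Celf1-205 (38.7%) were nearly level in replicate 1, and Celf1-205 led in replicate 2 with 31.2%. Celf1-201 held 0% and 19.3%, and it was the only transcript with TPM that holds a 152-base exon outside the coding sequence (chromosome 2, 90987665 to 90987816). That exon was at 0% and 45.4% inclusion, over spanning transcripts of only 10.65 and 28.69 TPM. Celf1-204 and Celf1-205 are not among these. In replicate 1 the value rests almost wholly on Celf1-206, at 10.64 TPM, which lacks the exon. Over all members with at least 5 TPM in both libraries and several transcripts, 3 of 5 kept the same leading transcript (Ptbp1, Elavl4 and Rbfox2), against 65.7% of 4249 protein-coding genes.

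Nova1 and Srrm4, which drive neuron-specific exons, had the lowest means of the 10, although Elavl3 was below Srrm4 in replicate 2. Nova1 (ENSMUSG00000021047.6, chromosome 12, 46694517 to 46818929, minus strand), which binds YCAY elements, was at 1.38 and 2.17 TPM (1.77 ± 0.56, SD, n = 2), above 2.8% of protein-coding genes with a mean of at least 1 TPM. Its paralog Nova2 was higher in both libraries, at 22.1 and 6.56 TPM, or 16.03 and 3.02 times Nova1. Srrm4 (ENSMUSG00000063919.8, chromosome 5, 116439275 to 116591817, minus strand), which promotes neural microexons, was at 2.33 and 4.06 TPM (3.19 ± 1.22). The low levels rest on 213 and 332 counts for Nova1 and on 384 and 664 for Srrm4. Srrm3, the paralog of Srrm4, was at 1.00 and 2.22 TPM.

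Apart from Ptbp2 and Elavl3, the regulators differed between the libraries by less than 2-fold. A difference is replicate 2 minus replicate 1 of log2(TPM + 1), a scale that understates the change of low genes. With a mean of at least 10 TPM required, 1 of 7 regulators differed 2-fold or more, Ptbp2 at -2.36, against 51.3% of 7680 genes. Elavl3 differed by -2.48 but had a mean of 9.83 TPM, just under that limit. The other differences were -0.33 for Ptbp1, -0.75 for Elavl1, 0.24 for Elavl2, 0.66 for Elavl4, 0.43 for Celf1, -0.71 for Rbfox2, 0.41 for Nova1 and 0.60 for Srrm4. Of the 10 genes, 5 were higher in each library, and the median difference was -0.05, beside 0.12 over the 11107 genes with a mean of at least 1 TPM.

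Among genes of like level, Ptbp2 belonged to the minority that differed 2-fold. Of the 835 genes with a mean of 100 to 200 TPM, 28.9% differed 2-fold. Ptbp2 was among them, and Ptbp1 and Elavl4 were not. Among genes of 50 to 100 TPM, where Elavl2 and Celf1 lie, the share was 42.9%. For Rbfox2, in the range from 20 to 50 TPM, it was 56.1%, and for Elavl1, from 10 to 20 TPM, 75.6%. In the range of Elavl3, from 5 to 10 TPM, 82.0% of genes differed 2-fold, so a difference like that of Elavl3 was the usual case at its level. The single library per pool gives no replicate check of any of these differences.

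**Figure D3:**
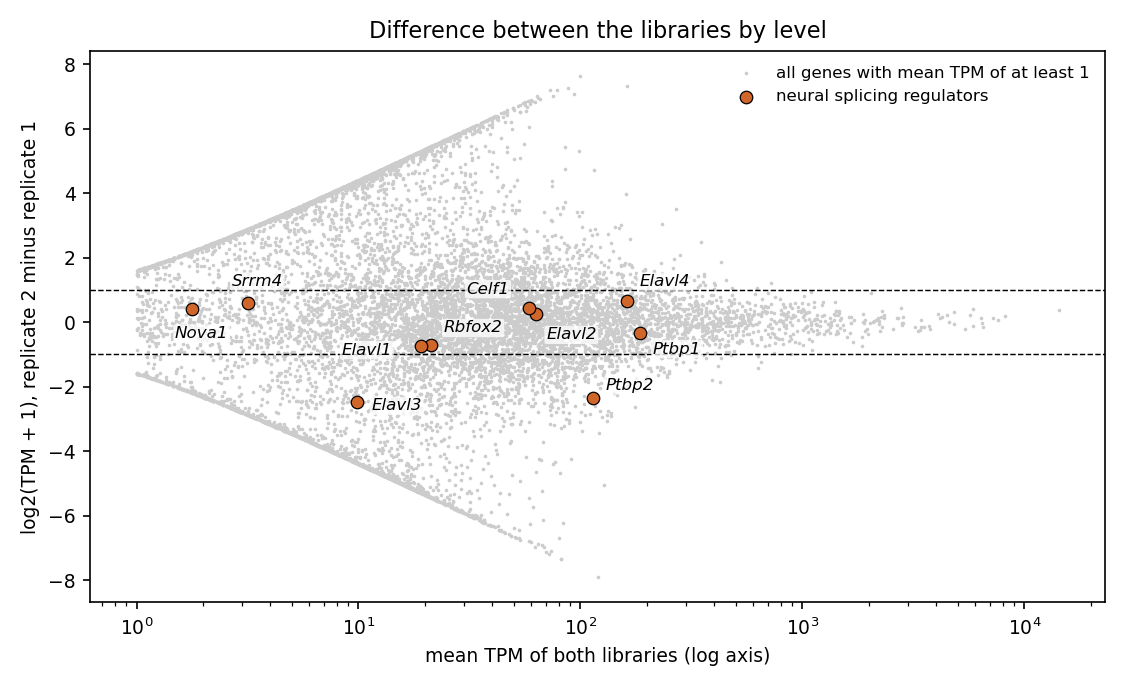
Difference between the libraries (replicate 2 minus replicate 1 of log2(TPM + 1)) against mean TPM (log axis) for the 10 regulators (orange) and all 11107 genes with a mean of at least 1 TPM (grey); dashed lines mark 2-fold on this scale. Ptbp2 and Elavl3 lie below the lower line at -2.36 and -2.48, and the other 8 regulators lie between the lines.

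The use of strand in counting is not stated in any source used here, so reads of a gene and of one on the other strand may not be separable. Plppr3, a neural membrane protein gene, overlaps Ptbp1 by 4297 bases on the opposite strand and had 2599 and 6354 counts. The antisense gene Srrm4os overlaps Srrm4 by 26213 bases and had 615 counts in replicate 1 and 0 in replicate 2, while Srrm4 was lower in replicate 1. Its part in the level of Srrm4 was not tested. The genes overlapping Elavl1, Elavl2 and Rbfox2 had at most 30 counts in either library.

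**Figure D4:**
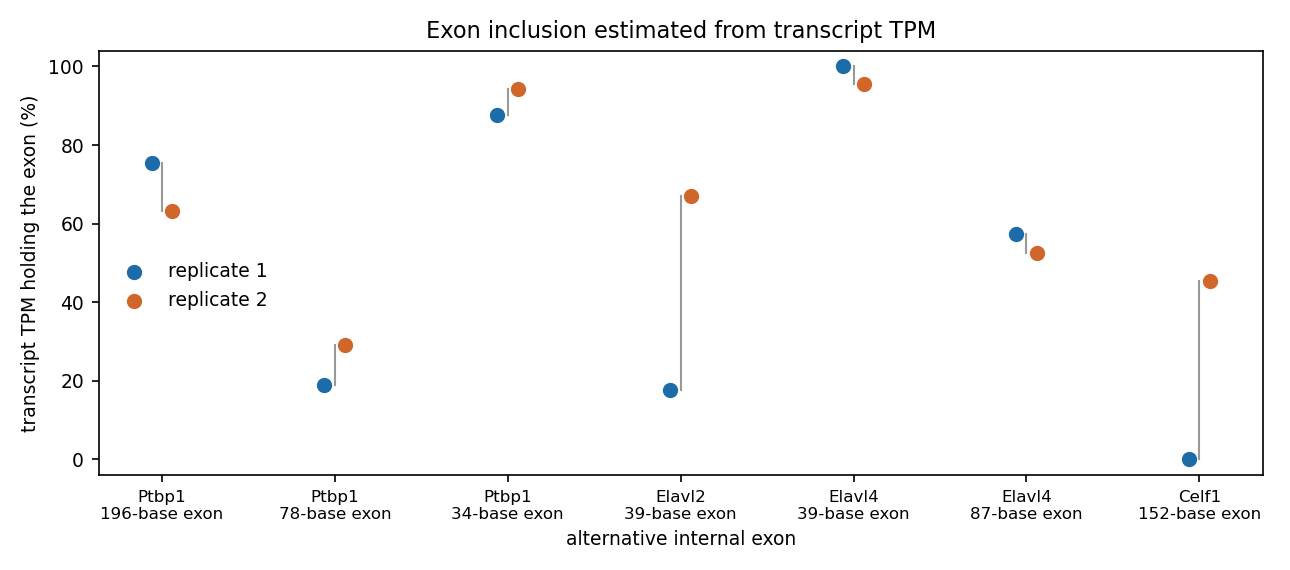
Inclusion of 7 alternative internal exons of the regulators, as the percent of the TPM of spanning transcripts that hold the exon, in replicate 1 (blue) and replicate 2 (orange); grey lines join the 2 libraries. The Elavl4 39-base exon is near 100% in both. The Elavl2 39-base exon is at 17.5% and 66.9% and the Celf1 152-base exon at 0% and 45.4%. Transcripts that hold an overlapping form of an exon, or do not span it, are left out of its value.

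Of the 12 alternative internal exons found in Ptbp1, Elavl2, Elavl4 and Celf1, 6 lay between 5% and 95% inclusion in at least 1 library. The plot of exon inclusion shows these and the Elavl4 39-base exon. The Elavl4 87-base exon, at 57.4% and 52.4%, is carried by the short transcripts Elavl4-208 and Elavl4-212 and is not wholly coding. The other 6 exons were nearly always skipped or nearly always held in both libraries.

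Other regulators of neural splicing were mostly present as well. Of 23 on the list, 17 were detected in both libraries, 1 in replicate 2 alone and 5 in neither, where 30.4% of protein-coding genes were detected in both. This list too was chosen with earlier results of these data known. The highest were Matr3, a nuclear matrix protein that works with PTBP1, at 297 and 464 TPM; Srsf11, which helps SRRM4 on microexons, at 357 and 216; and Tia1, which binds U-rich RNA beside weak splice sites, at 150 and 117. Of 15 with a mean of at least 10 TPM, 7 differed 2-fold, with replicate 1 the higher for 4 and replicate 2 for 3, a share near the 51.3% of all such genes. Their median difference was 0.00. Among the remaining paralogs, Celf3 was at 15.6 and 20.4 TPM, and Celf4 at 7.06 and 1.72. Celf5 was at 0.26 and 21.7 TPM from only 24 and 196 counts, and Celf6 had 0 counts in both.

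RNAs that these proteins are known to act on were detected in both libraries for 7 of 10 genes, beside the 30.4% of protein-coding genes detected in both. Of the others, 1 was detected in replicate 1 alone and 2 in replicate 2 alone. These genes were also chosen with earlier results of these data known. Pkm, the pyruvate kinase gene whose exon choice PTBP1 controls, was at 1669 and 1744 TPM, Dab1, a reelin signalling adaptor with NOVA-regulated exons, at 39.5 and 35.4, and Agrn, the agrin gene, at 8.50 and 28.5. Of 6 with a mean of at least 10 TPM, 4 differed 2-fold, 2 in each direction, against 51.3% of all such genes. The median difference of the 10 was 0.84, beside 0.12 over all genes with a mean of at least 1 TPM. Rest, the repressor of neuronal genes whose transcript SRRM4 splices, was at 4.24 and 1.74 TPM. It was 1.82 times Srrm4 in replicate 1 and 0.43 times in replicate 2.

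Short exons known as targets could be read in Src and Agrn, which, like Rest, were singled out after their values were seen. Their sequences are shown in lower case because they are the exons that define the neural forms of both proteins. The Src exon (exon 6 of Src-202, chr2:157458843-157458860, plus strand) has 18 bases and is repressed by PTBP1 outside neurons. The Agrn exons, of 24 bases (exon 34 of Agrn-203, chr4:156168546-156168569, minus strand) and 33 bases (exon 35, chr4:156167777-156167809, minus strand), are included by NOVA proteins in neurons.
Src exon: gaggaaggtggatgtcag
Agrn 24-base exon: cgagctgaccaatgagatcccagc
Agrn 33-base exon: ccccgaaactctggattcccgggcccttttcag
No Src TPM was assigned to transcripts with the 18-base exon in either library, over 141 and 677 spanning expected counts for Src at 1.81 and 8.75 TPM. The Agrn 24-base exon was held by 99.9% and 73.6% of the spanning TPM, with 942.8 of 945 and 1002.8 of 2177.5 spanning expected counts. The 33-base exon was held by 57.5% in replicate 1 and 2.8% in replicate 2, over 945 and 2178 spanning counts. The shorter Agrn exon was thus in most of the spanning TPM in both libraries, but in most of the counts only in replicate 1. The longer one was in most of the TPM only in replicate 1. These shares come from the authors' division of reads among transcripts and not from reads counted across splice junctions.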

How the data were processed

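Gene and transcript tables of each library were used as deposited. Per the file headers, they hold expected counts (estimated reads, which need not be whole), TPM and FPKM, and a posterior mean of each. The deposited transcript tables also give each transcript's share of its gene as a percent, and the deposited interval limits of TPM were read as a score. The text deposited with the tables names mm10 and annotation M4, while no source used here gives the aligner, the quantification program or the use of strand. TPM covers all rows, and spike-ins (with phiX) took 8.44% and 6.56% of it.

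Symbols, coordinates and exons came from GENCODE M21 on mm10, which matched 98.0% of gene IDs. Of 70 transcripts of the 10 genes, 69 matched by ID and 62 by length, and exons were read only from the latter. Detection was 1 TPM, and a 2-fold difference was 1 on the log2(TPM + 1) scale (pseudocount 1) at a mean of at least 10 TPM. The 2-fold count was tested on simulated counts with planted changes and counting error only. That test therefore does not cover variation from amplification or between the pools. Alternatives used edgeR 4.0.16 (TMM) and DESeq2 1.42.0 (size factors) for scaling, on counts rounded to whole numbers, with no test. A count of 0 was taken to allow 3 counts. Reads have no molecular identifiers, so such limits cover counting error only.

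The members and lists were chosen with earlier results of these data known. The text names all 10 members, their paralogs and, from the lists of other regulators and of target RNAs, the 3 genes of highest mean TPM detected in both libraries. The rule takes marker genes too, but marker lists are given as counts and sums. Vim, Fabp7, Sox2, Pax6, Nefl, Dcx, Stmn2, Rest, Src, and genes overlapping a member were named after their values were seen.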

Additional observations from a re-analysis of the deposited data

How the results depend on the processing

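The count of regulators that differed 2-fold rose from 1 to 2, Ptbp2 and Elavl3, with no filter on the mean (then 2 of 10, against 16.1% of all rows), with TPM rescaled over gene rows (2 of 8, 52.2%), and with CPM scaled by TMM or by DESeq2 size factors (2 of 9 and 56.4% in both). The 16.1% covers all 43346 gene rows, of which 11107 had a mean of at least 1 TPM, so it is no like background for the 10 genes. In the ranges of mean level from 1 to 200 TPM, the share that differed 2-fold was 28.9% to 82.0%. The count stayed at 1 of 7 with pseudocounts of 0.1 and 5 and with the posterior mean, against 52.2%, 47.9% and 49.2% of all genes. All 10 genes were detected at 0.5 TPM, with at least 10 counts, with the posterior mean and in each library alone, and 7 at 5 TPM. The leading transcript was the same in 4 of 6 genes at 1 TPM and in 2 of 4 at 20 TPM. No share of all genes is given for these detection and transcript limits, so the counts are descriptive only. Differences of single genes kept their direction and their side of 2-fold in all 60 alternatives. Of 30 levels under FPKM, the posterior mean or transcripts of at least 1000 bases, 5 moved by more than 1 SD; leaving out a library gives the other library's value. With counts, or with transcripts of at least 1000 bases (both chosen after seeing the data), the ratio of Ptbp1 to Ptbp2 in replicate 1 turned from 1.08 to 0.74 and 0.89. With the latter, Elavl4 over Elavl2 turned from 2.17 and 2.91 to 0.41 and 0.74. Of 12 inclusion values 1 moved by more than 1 SD with the posterior mean, that of the Ptbp1 196-base exon in replicate 2, at 52.9%; matching transcripts by ID could change none, since all transcripts of these 4 genes matched by length. No paired analysis was possible because there is only one group. Counting error does not cover the sampling of molecules from 1 cell-equivalent of RNA before amplification, which cannot be told apart here from differences between the pools.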
